A study of Mus musculus with 6 samples.

Results

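The Slc1 genes encode the high-affinity glutamate and neutral amino acid transporters of the plasma membrane, and 5 of them, Slc1a1 to Slc1a5, are described here across mouse pluripotent cell lines. Every probe whose gene name in the deposited table equals a member, ignoring case, was taken, which gave 14 of the 45281 probes, for 5 of the 28902 gene names on the array. Slc1a1 had 3 probes, Slc1a2 had 4, Slc1a3 and Slc1a4 had 1 each, and Slc1a5 had 5. The family was picked for 1 measured value, the higher level of Slc1a1 in the line labelled CL25 than in the line labelled O2ACH iPS. For that reason Slc1a1 is described without a test, and none of the 5 genes is tested between those lines.

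RNA of 6 samples was measured on Illumina bead arrays, 2 biological replicates for each of 3 lines of B6 background. CL25 is a clone, cl2.5, of induced pluripotent stem (iPS) cells with the construct PB-Oct4.2A.cherry, and its label is marked low. O2ACH iPS cells carry the same construct without that mark, and both iPS labels end in a minus/minus sign with no gene named beside it. ESC are embryonic stem cells without a construct in their label. All lines grew in medium with knockout serum replacement, LIF, the glycogen synthase kinase inhibitor CHIR99021 at 3 µM and the MEK inhibitor PD0325901 at 1 µM. Every kind of cell was represented by 1 line, so p-values measure the spread between samples of a line and not between lines of a kind.

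As background, the carriers of this family move amino acids into the cell against their gradient. The glutamate carriers, products of Slc1a1, Slc1a2 and Slc1a3 among others, couple uptake of glutamate or aspartate to sodium, protons and potassium and keep glutamate low outside neurons. The neutral carriers, products of Slc1a4 and Slc1a5, exchange alanine, serine, cysteine and, for Slc1a5, glutamine in a sodium-dependent way. The Slc1a1 product also carries cysteine, a precursor of glutathione.

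The arrays resembled each other in overall signal, with 35.9% to 37.5% of probes detected at a p under 0.05. Over all kept probes, defined as those detected on at least 2 of the 6 arrays, the correlation of log2 values was 0.988 between the CL25 arrays, 0.982 between the O2ACH iPS arrays and 0.979 between the ESC arrays, against 0.955 to 0.980 between arrays of different lines. Pou5f1, the pluripotency factor Oct4 that the construct is named after, had log2 levels of 8.97 and 8.87 in CL25, 10.96 and 11.03 in O2ACH iPS cells, and 12.18 and 12.21 in ESC. It was lower by the fit in each comparison, with log2 differences of -2.07 for CL25 against O2ACH iPS, -3.27 for CL25 against ESC and -1.20 for O2ACH iPS against ESC (limma adjusted p 0.00306, 0.00046 and 0.0294). The last of these calls was lost without any 1 of the 6 arrays, at adjusted p 0.0517 to 0.184, and in a fit of those lines alone (0.0908). A dimmer Pou5f1 probe on the same target record, 3450519, gave -1.70, -3.12 and -1.42 in the same order (limma adjusted p 0.0065, 0.00046 and 0.018). All 10 markers of pluripotent cells that were looked at, among them Nanog, Esrrb and Zfp42, had a kept probe, and the 9 besides Pou5f1 passed the test in no comparison.

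The promoter of Slc1a1 is shown because this gene carries the difference between lines, and that of Slc1a4 because it holds the letters of a response element for amino acid supply. Sequences are from RefSeq on GRCm38.p6, from 250 bases before the start of the gene to 30 after it, and 4 of the 5 members had an entry (Slc1a5 had none). The Slc1a1 window is chr19:28834885-28835164 on the plus strand, with capitals on a GC box, GGGCGG on the reverse strand. The Slc1a4 window is chr11:20332684-20332963 on the minus strand, with capitals on the reverse complement of TGATGCAA, the amino acid response element that the factor Atf4 binds.
Slc1a1: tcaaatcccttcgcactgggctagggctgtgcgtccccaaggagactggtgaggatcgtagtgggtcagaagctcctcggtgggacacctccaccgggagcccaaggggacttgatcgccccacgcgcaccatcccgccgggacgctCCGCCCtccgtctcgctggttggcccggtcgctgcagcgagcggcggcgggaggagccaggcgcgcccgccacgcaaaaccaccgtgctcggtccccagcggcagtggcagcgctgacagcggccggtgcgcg
Slc1a4: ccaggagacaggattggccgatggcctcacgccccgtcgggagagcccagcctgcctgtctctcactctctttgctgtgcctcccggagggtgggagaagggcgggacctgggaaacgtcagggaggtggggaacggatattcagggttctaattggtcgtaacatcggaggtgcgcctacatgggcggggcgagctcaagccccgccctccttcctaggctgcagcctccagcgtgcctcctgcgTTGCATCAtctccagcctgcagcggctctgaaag
Over 300 bases, 250 before and 50 after the start, the Slc1a1 promoter was 70.3% G or C with 32 CpG pairs, and that of Slc1a4 was 65% with 21. The promoters of Slc1a2 and Slc1a3 held 1 and 3 CpG pairs at 45.7% and 45.3% G or C. The median over 32851 RefSeq promoters was 7 CpG pairs and 52.7%. On both strands, TGATGCAA occurred in 0.895% of all promoters and, among the 4 members, in that of Slc1a4, at -4. GGGCGG occurred in 35.7% of all, with 1 match for Slc1a1 at -103, 1 for Slc1a3, 3 for Slc1a4 and 0 for Slc1a2. The octamer ATGCAAAT, the site that Oct4 is known to bind, occurred in 1.74% of all promoters and in 0 of these 4 windows. TATAAA occurred in 13.6% of all and once among the members, in Slc1a3. These matches describe letters and are not evidence of binding.

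Slc1a1, the glutamate, aspartate and cysteine carrier known in rodents as EAAC1, was detected by its brighter pair of probes in CL25 and in neither of the other lines. On the array, the brightest, probe 5870100, had intensities of 355.5 and 229.9 in CL25, 79.6 and 91.4 in O2ACH iPS cells, and 80.9 and 84.4 in ESC. Both CL25 samples stood above the other 4, which lay in the range of the negative controls. After background correction and normalisation the log2 levels were 8.09 and 7.32 in CL25, 4.50 and 4.66 in O2ACH iPS cells, and 4.55 and 4.54 in ESC. The mean was 7.71 ± 0.54 in CL25, 4.58 ± 0.11 in O2ACH iPS cells and 4.54 ± 0.01 in ESC (SD, n = 2 each), so CL25 came first and the order of the other lines was not resolved.

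The log2 difference of that probe was 3.12 ± 0.26 (SE) for CL25 against O2ACH iPS and 3.16 ± 0.26 for CL25 against ESC. Because it was not detected in the dimmer lines, these are bounds, at least 6.07-fold and at least 6.25-fold higher in CL25. For such a bound, the dimmer line was set on each array to the lowest detected signal or to the probe's own, whichever was higher. For O2ACH iPS against ESC the difference was 0.04 ± 0.26, with both lines below detection. The size depends on the background subtracted: without any correction the differences were 1.70 and 1.73, and with an offset of 50 in place of 16 they were 2.07 and 2.09. In a culture measured in bulk, expression in a part of the cells and a lower level in all of them cannot be told apart.

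Probe 840242, on the same target record, was also highest in CL25, with the other lines again below detection. Its intensities were 272.5 and 164.0 in CL25, 72.9 and 87.0 in O2ACH iPS cells, and 84.6 and 86.1 in ESC. The log2 levels were 7.58 and 6.59 in CL25, 4.39 and 4.55 in O2ACH iPS cells, and 4.64 and 4.57 in ESC, again with no overlap between CL25 and the other lines. The difference was 2.62 ± 0.31 for CL25 against O2ACH iPS, at least 3.95-fold, and 2.48 ± 0.31 for CL25 against ESC, at least 4.08-fold. Both probes read the same transcript record and are not independent.

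The third Slc1a1 probe, 830014, belongs to another target record that the table gives neither a definition nor a chromosome for. It had intensities of 108.1 and 97.3 in CL25, 101.9 and 93.8 in O2ACH iPS cells, and 92.6 and 100.1 in ESC, with all lines overlapping. It was detected on 1 of 2 CL25 arrays, 1 of 2 O2ACH iPS arrays and 0 of 2 ESC arrays. Its log2 differences were 0.03, 0.11 and 0.08 (SE 0.22 each) for CL25 against O2ACH iPS, CL25 against ESC and O2ACH iPS against ESC. The probes of Slc1a1 therefore disagreed by target record.

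The CL25 samples also differed from each other: replicate 1 was above replicate 2 by 0.77 on the log2 scale for probe 5870100 and by 0.99 for probe 840242. Without CL25 replicate 1 the difference of probe 5870100 was 2.73 against O2ACH iPS and 2.77 against ESC, and without CL25 replicate 2 it was 3.50 and 3.54. Each CL25 sample alone was thus above all 4 samples of the other lines.

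**Figure D1:**
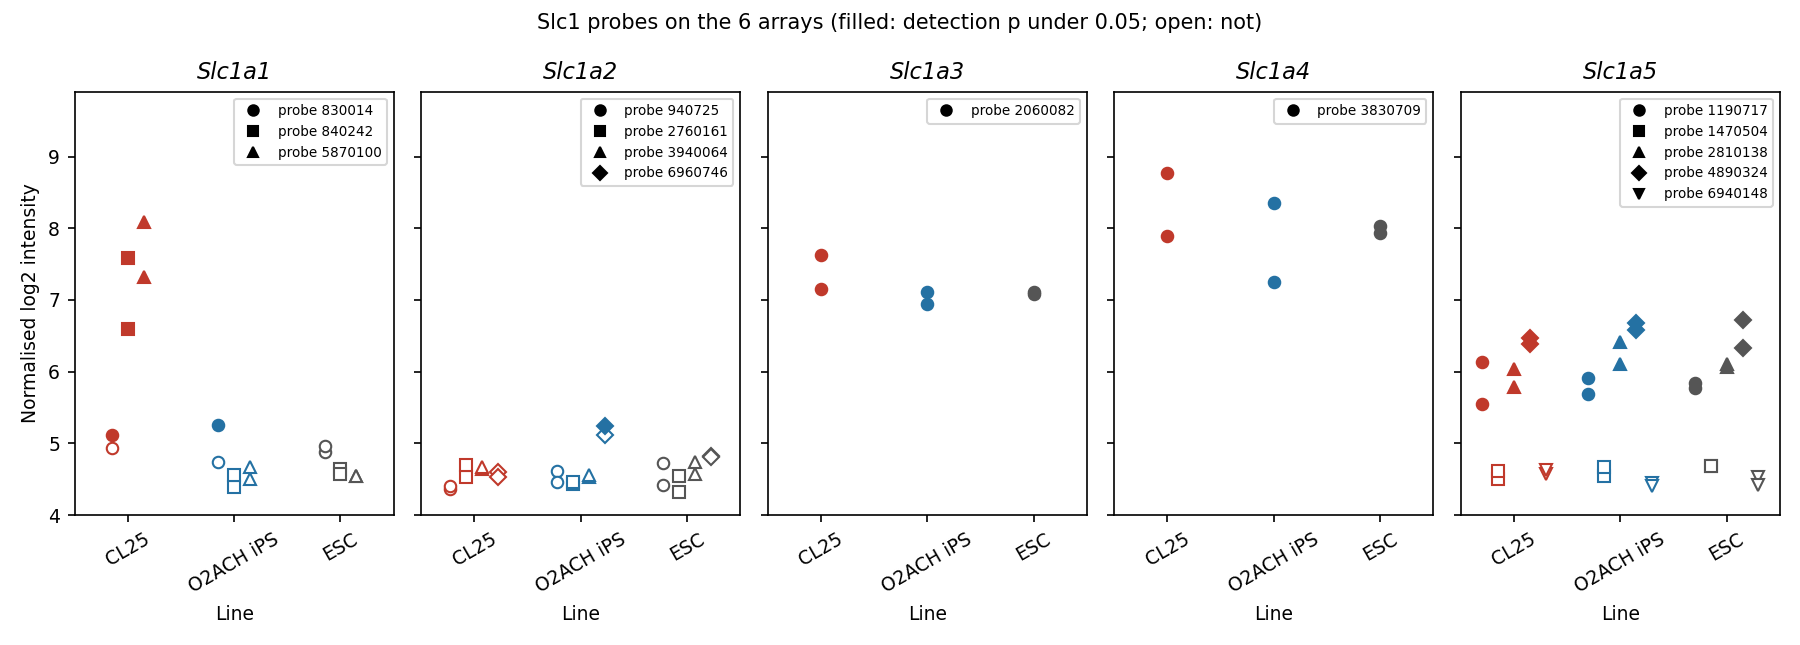
Normalised log2 intensity of the Slc1 probes on the 6 arrays, by line, with CL25 left, O2ACH iPS in the middle and ESC right; each point is 1 array, open where the probe was not detected at a p under 0.05, and the shape marks the probe. Slc1a1 probes 5870100 and 840242 lie between 6.59 and 8.09 in CL25, above all points of these probes in the other lines, while the line means of the kept Slc1a3, Slc1a4 and Slc1a5 probes span 0.05 to 0.52.

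Slc1a2, the main glutamate carrier of astrocytes, stayed near the level of the negative controls in all lines. Its 4 probes read 3 records, transcript variants 1, 2 and 3, and none was kept. Intensities ran from 70.7 to 108.1 over 24 probe readings, of which 1 was called detected, probe 6960746 on O2ACH iPS replicate 2 at 108.1. On that probe log2 levels were 4.60 and 4.53 in CL25, 5.11 and 5.24 in O2ACH iPS cells, and 4.83 and 4.81 in ESC. These values lie at the level of the negative controls, so a difference between lines was not detectable.

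Slc1a3, the glutamate and aspartate carrier of astrocytes and radial glia, was detected on all 6 arrays. Probe 2060082 had intensities of 279.5 and 211.1 in CL25, 188.7 and 195.5 in O2ACH iPS cells, and 201.0 and 218.2 in ESC. The log2 levels were 7.63 and 7.15 in CL25, 7.12 and 6.94 in O2ACH iPS cells, and 7.09 and 7.11 in ESC. After normalisation both CL25 samples were above the other 4 by a narrow margin, while before it the dimmer CL25 sample was below 1 ESC sample. CL25 against ESC gave a log2 difference of 0.29 (95% interval -0.21 to 0.79, limma adjusted p = 0.535), which did not pass the test. O2ACH iPS against ESC gave -0.07 (-0.57 to 0.43, limma adjusted p = 0.928), and CL25 against O2ACH iPS gave 0.36 ± 0.21 (SE), as a description.

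Slc1a4, the carrier ASCT1 of alanine, serine and cysteine, was detected on all 6 arrays and varied within the iPS lines by more than the line means differed. Probe 3830709 had intensities of 321.3 and 501.4 in CL25, 200.7 and 399.1 in O2ACH iPS cells, and 311.2 and 351.0 in ESC. The log2 levels were 7.89 and 8.77 in CL25, 7.25 and 8.35 in O2ACH iPS cells, and 7.94 and 8.04 in ESC, with all 3 lines overlapping. Replicate 2 was the brighter sample in every line, by 0.88 in CL25, 1.10 in O2ACH iPS cells and 0.10 in ESC. The difference was 0.34 (95% interval -0.59 to 1.26, limma adjusted p = 0.715) for CL25 against ESC and -0.19 (-1.11 to 0.74, limma adjusted p = 0.887) for O2ACH iPS against ESC. For CL25 against O2ACH iPS it was 0.52 ± 0.40 (SE).

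Slc1a5, the carrier ASCT2 through which many proliferating cells take up glutamine, was dim on these arrays and close in all lines. Of its 5 probes, the 3 of one target record were kept, and 2 of other records were detected on none of the arrays, at intensities of 76.8 to 91.8. Probe 4890324 had intensities of 159.2 and 156.2 in CL25, 157.2 and 167.5 in O2ACH iPS cells, and 146.4 and 182.8 in ESC. Probe 2810138 had 130.1 and 132.7 in CL25, 128.3 and 156.5 in O2ACH iPS cells, and 134.7 and 141.3 in ESC. Probe 1190717 had 121.3 and 138.2 in CL25, 113.4 and 131.4 in O2ACH iPS cells, and 120.0 and 130.9 in ESC.

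None of these Slc1a5 probes passed the test against ESC. For CL25 against ESC the log2 differences were -0.10 (95% interval -0.56 to 0.36), -0.18 (-0.63 to 0.28) and 0.04 (-0.51 to 0.59) in the order of probes above, with limma adjusted p of 0.847, 0.699 and 0.955. For O2ACH iPS against ESC they were 0.10 (-0.36 to 0.57), 0.18 (-0.28 to 0.63) and -0.01 (-0.55 to 0.54), with limma adjusted p of 0.873, 0.757 and 0.992. For CL25 against O2ACH iPS they were -0.20, -0.35 and 0.05, as a description. Over these probes and both comparisons the interval ends ran from -0.63 to 0.63.

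**Figure D2:**
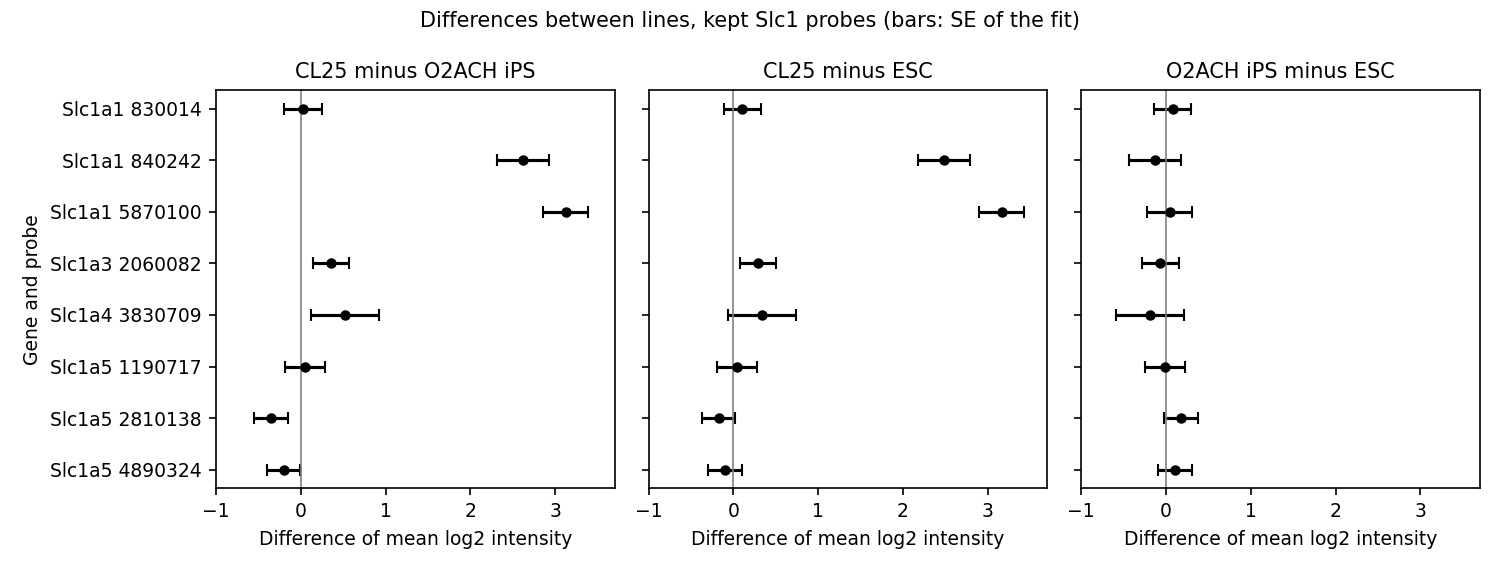
Log2 difference of each kept Slc1 probe for CL25 against O2ACH iPS, CL25 against ESC and O2ACH iPS against ESC, with bars for the standard error of the fit. The Slc1a1 probes 5870100 and 840242 lie between 2.48 and 3.16 in both CL25 comparisons, and the other probes lie between -0.35 and 0.52 in all 3 comparisons.

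**Figure D3:**
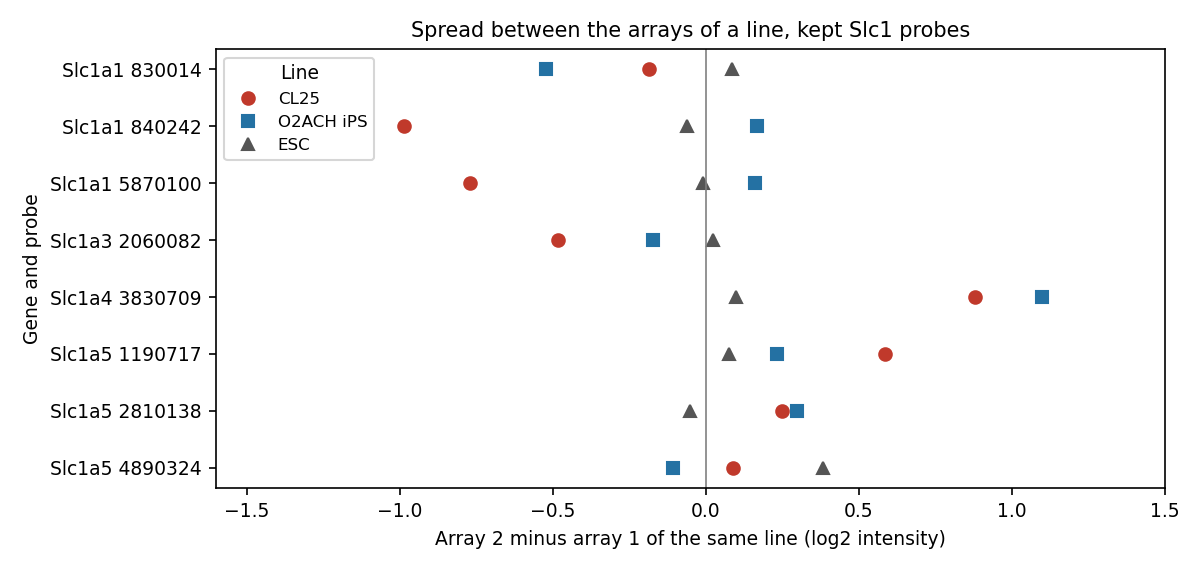
Log2 level of replicate 2 minus replicate 1 of the same line for each kept Slc1 probe, with 1 symbol a line. Slc1a4 lies right of 0 in all 3 lines, up to 1.10 in O2ACH iPS cells, and Slc1a1 probes 5870100 and 840242 lie left of 0 in CL25, at -0.77 and -0.99.

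Across the family, 8 of the 14 probes were kept: 3 of Slc1a1, 1 each of Slc1a3 and Slc1a4, 3 of Slc1a5 and 0 of Slc1a2. Of the 5 kept probes outside Slc1a1, 0 passed the limma test for CL25 against ESC and 0 for O2ACH iPS against ESC, and 0 had an unadjusted p under 0.05 in either. Among all kept probes of the array 3.98% passed in the first comparison and 0.715% in the second, so with 5 probes a count of 0 does not set the family apart. The comparisons share arrays and are not independent of each other. Line means of Slc1a3 to Slc1a5 probes spanned 0.05 to 0.52 on the log2 scale. The remaining genes of the family, Slc1a6 and Slc1a7, which encode glutamate carriers of cerebellum and retina, had 1 kept probe each near the detection limit. Their log2 differences were 0.18, 0.22 and 0.04 (SE 0.32) and -0.13, -0.10 and 0.03 (SE 0.19) in the order CL25 against O2ACH iPS, CL25 against ESC and O2ACH iPS against ESC, and none passed the test.

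Outside Slc1a1, whose own probe 840242 lay at a distance of 0.73, the probes most like its probe 5870100 across the 6 arrays were those of Klra1, Dab2, Ffar2 and Gpat3. Likeness was the Euclidean distance between log2 levels centred on each probe's mean, over 15445 probes with a gene name, and with 6 arrays it rests on CL25 being high. The distance was 0.20 for Klra1, a C-type lectin receptor found on natural killer cells, and 0.55 for Dab2, an endocytic adaptor. It was 0.68 for Ffar2, a receptor for short-chain fatty acids, and 0.82 and 0.83 for the probes of Gpat3, an acyltransferase of lipid synthesis. Klra1 had log2 levels of 7.82 and 7.25 in CL25, 4.39 and 4.53 in O2ACH iPS cells, and 4.52 and 4.32 in ESC. Like Slc1a1, it was detected in CL25 and not in the other lines.

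The genes beside the Slc1 genes were taken from the RefSeq gene order, 1 protein-coding gene with a kept probe on each side of a member. Beside Slc1a1, Glis3 and Plpp6 had log2 differences of -0.09 and 0.16 for CL25 against O2ACH iPS and -0.05 and -0.20 for CL25 against ESC, and did not pass the test. Of the 10 neighbours, 1 passed the test in CL25 against ESC, and 0 passed in either other comparison, where for CL25 against ESC 2.35% of all genes rose and 2.00% fell. It was Fjx1, beside Slc1a2, which encodes a secreted Golgi kinase. Fjx1 had intensities of 88.9 and 84.1 in CL25, 88.3 and 94.6 in O2ACH iPS cells, and 118.8 and 143.4 in ESC. Fjx1 was detected on the ESC arrays alone, so its tests against ESC are not independent of the filter that kept it. It was at least 1.80-fold lower in CL25 than in ESC (log2 difference -1.38, limma adjusted p = 0.0116), and the call was lost without either CL25 replicate or without ESC replicate 2, at adjusted p 0.0587 to 0.0981. For O2ACH iPS against ESC it was at least 1.76-fold lower by the same bound (limma adjusted p = 0.0508, and 0.0275 with the replicate number as a block).

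Other amino acid transporters of the plasma membrane were compared by the brightest kept probe of each gene, which 16 of 27 listed genes had. For CL25 against O2ACH iPS 1 rose and 1 fell, where 1.16% of all genes rose and 1.09% fell. For CL25 against ESC 0 rose and 2 fell, where 2.35% of all genes rose and 2.00% fell. For O2ACH iPS against ESC 0 rose and 0 fell, where 0.428% of all genes rose and 0.380% fell. At an unadjusted p under 0.05, 3 were higher and 2 lower in CL25 than in O2ACH iPS cells. Against ESC, 1 was higher and 3 were lower in CL25, and 0 were higher and 3 lower in O2ACH iPS cells. The share of all genes at that unadjusted p was not computed. The median log2 difference of the 16 was 0.01, -0.23 and -0.25 in these comparisons, against -0.02, -0.02 and -0.00 over all genes.

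Slc7a3, a carrier of arginine and lysine, fell in CL25 against both other lines. Its log2 levels were 9.20 and 9.39 in CL25, 12.22 and 11.27 in O2ACH iPS cells, and 11.40 and 10.81 in ESC, with CL25 below all other samples. The log2 difference was -2.45 ± 0.34 (SE) against O2ACH iPS (limma adjusted p = 0.0163) and -1.81 ± 0.34 against ESC (limma adjusted p = 0.0303). The first call was lost without either CL25 replicate or O2ACH iPS replicate 1 (adjusted p 0.0751 to 0.112), and the second without any 1 of the CL25 or ESC arrays (0.0554 to 0.157). A dimmer probe of the gene, 1690348, gave -0.27 and -0.18.

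Slc38a4 and Slc38a5 carry neutral amino acids with sodium. Slc38a4 had log2 levels of 6.56 and 6.47 in CL25, 4.73 and 4.84 in O2ACH iPS cells, and 6.07 and 5.68 in ESC. It was at least 2.66-fold higher in CL25 than in O2ACH iPS cells (log2 difference 1.73 ± 0.20, limma adjusted p = 0.00937), a call lost without either CL25 replicate or O2ACH iPS replicate 1 (0.0742 to 0.0798). In O2ACH iPS cells it was at least 1.71-fold below ESC (limma adjusted p = 0.0671, and 0.0376 with the replicate number as a block, a fit in which 1.17% of all genes fell). Slc38a5, which also carries glutamine, had 4.50 and 4.50 in CL25, 6.27 and 5.41 in O2ACH iPS cells, and 5.80 and 6.60 in ESC. It was at least 2.19-fold lower in CL25 than in ESC (log2 difference -1.69 ± 0.35, limma adjusted p = 0.0402), a call lost without either CL25 replicate or ESC replicate 2 (0.156 to 0.218). The bright genes Slc6a6, the taurine carrier, and Slc38a2 had differences of -0.23 to 0.07 in all 3 comparisons and did not pass the test.

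The genes of glutamate and glutamine metabolism, 21 of 24 with a kept probe, gave no call in any comparison by limma. At an unadjusted p under 0.05, 2 were higher and 2 lower in CL25 than in O2ACH iPS cells, 1 was higher and 5 lower in CL25 than in ESC, and 0 were higher and 2 lower in O2ACH iPS cells than in ESC. Here and for the other lists, the share of all genes at an unadjusted p under 0.05 was not computed. Such counts therefore do not set a list apart. Asns, which makes asparagine from glutamine, had log2 levels of 13.64 and 13.68 in CL25, 13.32 and 13.79 in O2ACH iPS cells, and 13.60 and 13.54 in ESC. With the replicate number as a block, 1 gene was called higher and 1 lower in CL25 than in O2ACH iPS cells, in a fit where 2.95% of all genes rose and 2.60% fell. These were Gad1, a glutamate decarboxylase (log2 difference 1.57, limma adjusted p = 0.0359 with the block and 0.164 without), and Oat, ornithine aminotransferase (-1.23, 0.0312 with the block and 0.107 without).

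In glutathione synthesis and use, 8 of 10 genes had a kept probe. For CL25 against O2ACH iPS 1 rose and 1 fell, for CL25 against ESC 1 rose, and for O2ACH iPS against ESC 1 rose, beside the shares of all genes given for the transporters (1.16% and 1.09%, 2.35% and 2.00%, 0.428% and 0.380%). Gss, glutathione synthetase, had log2 levels of 8.74 and 8.30 in CL25, 7.23 and 7.42 in O2ACH iPS cells, and 7.27 and 7.17 in ESC, with both CL25 samples above the other 4. For CL25 against O2ACH iPS and against ESC, dimmer probe 1340020 gave 1.00 and 1.51 (limma adjusted p 0.047 and 0.00711). Probe 5390102 gave 0.89 and 1.32 (0.0735 and 0.0134). These probes read the target record of the brightest one. Probe 1820093, on another record, gave 0.51 and 0.50 (0.352 and 0.299). The brightest probe rose by 1.19 ± 0.21 against O2ACH iPS (limma adjusted p = 0.0386) and by 1.29 ± 0.21 against ESC (limma adjusted p = 0.0187). The first call was lost without any 1 of the 4 arrays compared (0.0696 to 0.207), and the second without either CL25 replicate or ESC replicate 2 (0.0607 to 0.119).

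Cth, cystathionine gamma-lyase, which makes cysteine, had 7.00 and 6.84 in CL25, 8.60 and 8.42 in O2ACH iPS cells, and 7.01 and 7.40 in ESC, so O2ACH iPS cells stood above the rest. It fell in CL25 against O2ACH iPS (-1.59 ± 0.21, limma adjusted p = 0.0131) and rose in O2ACH iPS against ESC (1.30 ± 0.21, limma adjusted p = 0.0422). The first call was lost without either CL25 replicate or O2ACH iPS replicate 1 (0.0762 to 0.130), and the second without any 1 of the 6 arrays (0.0709 to 0.233). With the replicate block, Gpx4, a lipid peroxide reductase, and Ggt1, which cleaves extracellular glutathione, were also called higher in CL25 than in O2ACH iPS cells, at a log2 difference of 0.80 and at least 1.45-fold (limma adjusted p 0.0473 and 0.0459 with the block, 0.218 and 0.139 without). In that fit 2.95% of all genes rose. Ggt1 was detected on the CL25 arrays alone, so its call is not independent of the filter that kept it.

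Among 6 of 7 genes that supply serine and alanine, 0 passed the limma test in any comparison, and at an unadjusted p under 0.05 1 was higher and 2 were lower in CL25 than in ESC, with 0 in the other comparisons. The 7 binding partners of Slc1 carriers compared here all had a kept probe, and 0 passed the limma test in any comparison. At an unadjusted p under 0.05, 1 was higher and 1 lower in CL25 than in O2ACH iPS cells, and 0 were higher and 1 lower in each comparison with ESC. The brightest, Arl6ip1, had log2 levels of 13.36 and 13.35 in CL25, 13.35 and 13.31 in O2ACH iPS cells, and 13.00 and 13.01 in ESC. Arl6ip5, named after its values were seen because in rat it binds the Slc1a1 product, had 9.07 and 9.05 in CL25, 8.36 and 8.54 in O2ACH iPS cells, and 8.86 and 9.50 in ESC, and did not pass the test.

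Of 24 glutamate receptors and vesicular glutamate carriers, 6 had a kept probe, and 1 fell in CL25 against ESC, where 2.00% of all genes fell. Grm7, a metabotropic receptor, had log2 levels of 4.56 and 4.43 in CL25, 4.83 and 4.42 in O2ACH iPS cells, and 5.77 and 5.62 in ESC. Grm7 was detected on the ESC arrays alone, so its tests against ESC are not independent of the filter that kept it. It was at least 1.54-fold lower in CL25 than in ESC (log2 difference -1.20 ± 0.21, limma adjusted p = 0.0225), a call lost without any 1 of the CL25 or ESC arrays (0.0637 to 0.180). In O2ACH iPS cells it was at least 1.51-fold below ESC (limma adjusted p = 0.0759, and 0.033 with the replicate number as a block, a fit in which 1.17% of all genes fell). Without background correction the Grm7 difference for CL25 against ESC was -0.56 and that of Slc38a5 was -0.80 (limma adjusted p 0.0667 and 0.063), and with an offset of 50 they were -0.60 and -0.93 (0.0533 and 0.0766), so both calls were lost. With no detection filter the calls of Slc7a3, Slc38a5, Gss, Cth and Grm7 above, each by its brightest probe, were all lost (0.0572 to 0.158), while that of Slc38a4 held. The Cth call for O2ACH iPS against ESC was also lost in a fit of those lines alone (0.106).

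**Figure D4:**
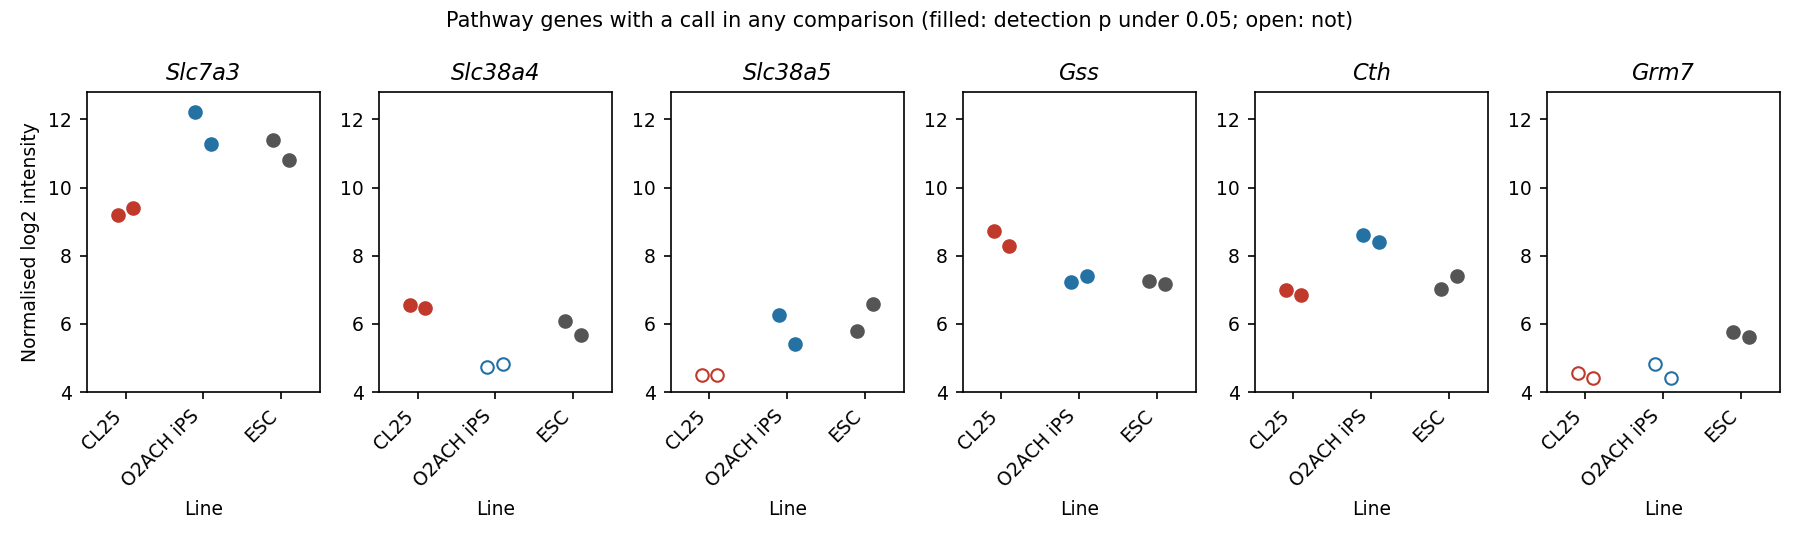
Normalised log2 intensity of the pathway genes described above that passed the test in at least 1 comparison, by array, with CL25 left, O2ACH iPS in the middle and ESC right; each point is 1 array, open where the probe was not detected at a p under 0.05. Slc7a3 and Slc38a5 are lowest in CL25, Gss is highest there, and Cth is highest in O2ACH iPS cells.

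Markers of other cell types moved with Slc1a1 in part. Of 10 extraembryonic endoderm markers, 6 had a kept probe and Gata4, Sox17, Foxa2 and Cubn had none. The summed normalised intensity of all 10, including those without a kept probe, was 649 to 899.3 in CL25, 329 to 382.1 in O2ACH iPS cells and 387.7 to 416.6 in ESC. Most of the excess of this sum in CL25 came from Gata6 and Dab2. Gata6 and Dab2 were higher in CL25 than in O2ACH iPS cells (log2 differences 2.00 and 2.48, limma adjusted p 0.0293 and 0.00915) and than in ESC (2.28 and 2.18, limma adjusted p 0.0117 and 0.00824). Among all genes, 1.16% rose in the first comparison and 2.35% in the second. Without CL25 replicate 1, or with no detection filter, all 4 of these calls were lost (0.0538 to 0.140 and 0.062 to 0.142), and for Gata6 against O2ACH iPS also without any 1 of the other 3 arrays compared (0.0515 to 0.174). The other kept Dab2 probes, each on another target record, disagreed: 1940347 gave 3.22 and 2.77 against O2ACH iPS and ESC. Probe 1050672 gave 0.10 and 0.41 and did not pass the test (limma adjusted p 0.851 and 0.272). With the replicate block Lrp2 was also called higher in CL25 than in O2ACH iPS cells (limma adjusted p = 0.0429, against 0.0733 without), in a fit where 2.95% of all genes rose. The other kept markers had log2 differences for CL25 against O2ACH iPS and against ESC of -0.08 and -0.40 for Amn, -0.23 and -0.02 for Sox7, 0.24 and 0.14 for Pdgfra, and did not pass the test. The part of these markers in the Slc1a1 result was not tested.

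Of 7 trophectoderm markers 5 had a kept probe, and Elf5 and Hand1 had none. The sum over all 7, including those without a kept probe, was 3803 to 4710 in CL25, 1725 to 2427 in O2ACH iPS cells and 1630 to 2400 in ESC. Of the 5 kept, 0 passed the test in CL25 against either line. At an unadjusted p under 0.05, 2 were higher and 1, Gata3, lower in CL25 than in O2ACH iPS cells, and 3 were higher than in ESC. Most of the sum is Tfap2c, at 3573 and 4468 in CL25, 1422 and 2209 in O2ACH iPS cells, and 2241 and 1453 in ESC; Gata3 and Cdx2 had log2 differences of -0.73 and -0.46 for CL25 against O2ACH iPS. With the replicate block Gata3 and Krt7 were called higher in CL25 than in ESC (limma adjusted p 0.0125 and 0.0455, against 0.0636 and 0.061 without), in a fit where 505 of 12631 genes rose. Gata3 was at least 2.87-fold higher in O2ACH iPS cells than in ESC (limma adjusted p = 0.0359). That call was lost without any 1 array but O2ACH iPS replicate 2 (0.0517 to 0.187), with no background correction (0.0792), with an offset of 50 (0.0718), with no detection filter (0.164) and in a fit of those lines alone (0.0645). Of 9 markers of astrocytes and radial glia, which carry Slc1a2 and Slc1a3, 2 had a kept probe, and Gfap, Aqp4, S100b, Gjb6, Fabp7, Pax6 and Sox1 had none. The sum over all 9, including those without a kept probe, was 387.1 to 468.5 in CL25, 258.1 to 350.4 in O2ACH iPS cells and 328.5 to 377.2 in ESC. Most of the difference between lines in this sum came from Nes. Its log2 levels were 7.15 and 7.59 in CL25, 4.96 and 6.26 in O2ACH iPS cells, and 6.37 and 6.72 in ESC. Of the 2 kept, Nes and Aldh1l1, Nes was called higher in CL25 than in O2ACH iPS cells with the replicate block alone (limma adjusted p = 0.0133, against 0.0787 without). In that fit 2.95% of all genes rose. Of 8 fibroblast markers 2 had a kept probe, Thy1 and Col1a2. Over all 8, including those without a kept probe, the sum was 213.8 to 269.4 in CL25, 207.5 to 236.4 in O2ACH iPS cells and 205.4 to 219.6 in ESC.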

How the data were processed

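RNA of 6 samples was measured on Illumina bead arrays, 2 per line; per the labels' protocols, total RNA was extracted with an RNeasy kit and labelled with the TotalPrep-96 kit. The deposited table gives, per the file headers, for 45281 probes an average bead intensity per array and a detection p-value beside it. The deposited intensity values were neither background-subtracted nor normalised between arrays, as their medians of 87.3 to 96.0 show. Which array model, scanner software and genome build were used is not given in the sources used here; values start from that table.

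The nec function of limma 3.58.1 (R 4.3.3) corrected background with an offset of 16, with 936 negative controls inferred from the steps of the detection p-values. Log2 values were quantile normalised, and 18175 probes of 12631 genes were kept, those whose detection p was under 0.05 on 2 or more of the 6 arrays. Leaving out dim probes can hide weak genes, and the offset shrinks their differences. One linear model with 3 line means was fitted over all kept probes with lmFit and eBayes, on 3 residual degrees of freedom and 4.69 from the prior. Calls are at a Benjamini-Hochberg adjusted p under 0.05 over all kept probes. The number of arrays limits the precision. A gene stands for its kept probe with the highest mean. Probe names were updated with RefSeq gene names (GRCm38.p6): 27760 were found as symbols and 7994 as synonyms, while 9527 stayed as in the table. The fit was checked on simulated data. One listed gene is not reported here and stays out of the list counts.

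The members, lists and tests were chosen with earlier results of these data known. Named genes were all Slc1 probes, list members called in any comparison and up to 3 further bright ones, the nearest kept neighbour on each side and the 5 most alike probes; markers and genes called only with the replicate block were named after their values were seen, and Arl6ip5 and the genes of the closing observations are so marked in the text.

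The replicate numbers, which the labels do not explain, were taken as a possible pairing of the samples. Deviations from line means correlated at 0.297 between CL25 and O2ACH iPS, 0.168 between CL25 and ESC and 0.305 between O2ACH iPS and ESC over 18175 probes, each over 0.1. The fit with the replicate number as a block is an alternative, beside other background correction, scaling, filters, probe choice and left-out arrays.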

Additional observations from a re-analysis of the deposited data

How the results depend on the processing

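Slc1a1 probes 5870100 and 840242 stayed higher in CL25 under all alternatives run, with probe 5870100 between 1.70 and 3.50 for CL25 against O2ACH iPS and between 1.73 and 3.54 for CL25 against ESC. None of the 5 kept probes of Slc1a3, Slc1a4 and Slc1a5 was called against ESC under any alternative that included it. The Slc1a2 and Slc1a5 probes that were not kept were left out of this count, also with no detection filter. Small differences changed sign: with scaling to the 75th percentile, Slc1a5 probe 1190717 was 0.0114 for O2ACH iPS against ESC. Leaving out 1 array each gave -0.12 to 0.11 for it, and -0.25 to 0.33 for CL25 against ESC. It also gave -0.15 to 0.019 for Slc1a3 in O2ACH iPS against ESC, -0.10 to 0.78 and -0.74 to 0.36 for Slc1a4 in CL25 and in O2ACH iPS against ESC, and -0.29 to 0.0922 and -0.0869 to 0.30 for Slc1a5 probe 4890324 in the same comparisons.

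Of the other transporters, the 2 called lower in CL25 than in ESC became 1 with no background correction, 1 with an offset of 50, 0 with no detection filter and 0 to 2 without 1 array. The 1 called lower in CL25 than in O2ACH iPS cells became 0 with no filter and 0 to 1 without 1 array, and the 1 called higher became 0 to 1. With the replicate block the 0 called lower in O2ACH iPS cells than in ESC became 1, Slc38a4. The replicate block changed no call of an Slc1 probe, and the calls it changed among the probes that stand for the other genes named are given beside them; it changed no other call of those probes. Of dimmer probes it added Gss 5390102 for CL25 against O2ACH iPS (adjusted p 0.0473, against 0.0735 without) and Grm7 7160605 against ESC for CL25 (0.0263, against 0.0636) and for O2ACH iPS (0.0327, against 0.0921). That Grm7 probe, too, was detected on the ESC arrays alone. Over all kept probes the calls numbered 350 for CL25 against O2ACH iPS, 724 for CL25 against ESC and 130 for O2ACH iPS against ESC. They became 924, 1308 and 395 with the block, 75, 266 and 39 with no filter, and 49 to 464, 117 to 763 and 21 to 285 without 1 array; the last was 73 in a fit of those lines alone. With no filter more probes are tested; the cause of the other changes was not tested.

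A slide block was not run because the table names no slide, and the authors' value table was not used because none of its 16306 row names matches a probe. Probes at the level of the negative controls, including all of Slc1a2, limit what can be read from the dim genes.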

Other observations

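Several genes of amino acid supply, chosen after their values were seen, resembled Slc1a4 in that replicate 2 was brighter than replicate 1 in every line. The log2 difference of replicate 2 minus replicate 1 was 0.88 in CL25, 1.10 in O2ACH iPS cells and 0.10 in ESC for Slc1a4. For Chac1, which degrades glutathione, it was 0.73 in CL25, 1.27 in O2ACH iPS cells and 0.58 in ESC. For Phgdh, the first enzyme of serine synthesis, it was 0.22 in CL25, 1.53 in O2ACH iPS cells and 0.53 in ESC. For Gpt2, an alanine aminotransferase, it was 0.74 in CL25, 1.04 in O2ACH iPS cells and 0.41 in ESC. For Pycr1, which makes proline, it was 0.75 in CL25, 1.07 in O2ACH iPS cells and 0.34 in ESC.

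Replicate 2 was the brighter in all 3 lines for 9 of 21 genes of glutamate and glutamine metabolism (42.9%), 4 of 8 glutathione genes, 3 of 6 serine and alanine genes and 4 of 16 other transporters, and replicate 1 for 5, 2, 1 and 2 of them. Over all 12631 genes replicate 2 was the brighter in all 3 lines for 18.8% and replicate 1 for 18.4%. It was 0 of 7 binding partners, 0 of 6 glutamate receptors and vesicular carriers, and 0 of the other Slc1 genes for replicate 2, and 2, 1 and 0 for replicate 1. The labels do not say what a replicate number stands for, and no test was made of this pattern.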
